A study of Mus musculus with 30 samples.

Results

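The heterogeneous nuclear ribonucleoproteins (hnRNP) and the serine- and arginine-rich (SR) splicing factors were described in the forebrain of mice given an antipsychotic drug. Members were the probe sets whose single gene symbol in the platform annotation begins with Hnrnp or Hnrp for the hnRNP proteins, or with Srsf or Sfrs for the SR proteins. There were 78 such probe sets of 27 genes among 22626 probe sets other than Affymetrix controls, 50 of them for 18 hnRNP genes and 28 for 9 SR genes. A further 7 probe sets that carry such a symbol together with another were not used.

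The samples were 30 male C57BL mice, with 1 Affymetrix MOE430A array for each and no pooling. Of these, 10 mice drank clozapine at 12 mg/kg per day for 12 weeks and 10 drank haloperidol at 1.6 mg/kg per day for 12 weeks. The other 10 were untreated controls; no genotype or transgene is named for any group. The labels call the tissue right forebrain in most fields and left in 1 field, give the age as 4 weeks although treatment ran for 12, and name clozapine beside the dose in the haloperidol protocol. Haloperidol is a typical antipsychotic whose main target is the dopamine D2 receptor, and clozapine, an atypical one, acts on receptors of several transmitters.

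Both families bind RNA while it is being spliced. SR proteins carry an RNA-binding domain and a tail of serine and arginine repeats, bind enhancer sequences in exons, and help the spliceosome choose nearby splice sites. The hnRNP proteins coat nascent RNA, often oppose SR proteins at silencer sequences, and several also act in the stability and transport of messenger RNA. Many genes of both families splice their own transcripts in alternative ways, so different probe sets of a gene can measure different transcripts.

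Promoter windows are shown for 3 genes on which the array results turn: Srsf5, which lay furthest below control among the SR genes under haloperidol, Hnrnpdl, whose probe sets all differed in the same direction between the drugs, and Hnrnpu, whose probe sets disagreed with each other. Each window runs from 250 bases before to 50 after the RefSeq start in GRCm38.p6, read 5′ to 3′ on the strand of the gene, and capitals mark matches on either strand to CCGGAAG (the core of an ETS factor site) or GGGCGG (a GC box). They lie at chr12:80945249-80945548 on the plus strand for Srsf5, chr5:100039173-100039472 on the minus strand for Hnrnpdl and chr1:178337766-178338065 on the minus strand for Hnrnpu.
Srsf5: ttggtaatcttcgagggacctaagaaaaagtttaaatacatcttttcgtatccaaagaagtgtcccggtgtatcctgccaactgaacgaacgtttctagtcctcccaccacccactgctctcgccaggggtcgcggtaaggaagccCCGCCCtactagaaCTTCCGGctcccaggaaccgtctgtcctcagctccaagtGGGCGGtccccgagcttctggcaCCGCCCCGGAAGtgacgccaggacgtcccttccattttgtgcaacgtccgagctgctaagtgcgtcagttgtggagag
Hnrnpdl: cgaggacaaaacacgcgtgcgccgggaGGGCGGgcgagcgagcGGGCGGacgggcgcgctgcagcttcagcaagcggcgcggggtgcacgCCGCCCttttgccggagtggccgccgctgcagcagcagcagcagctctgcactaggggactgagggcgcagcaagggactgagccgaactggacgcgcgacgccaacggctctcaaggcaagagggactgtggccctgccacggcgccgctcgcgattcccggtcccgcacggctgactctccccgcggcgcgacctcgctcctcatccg
Hnrnpu: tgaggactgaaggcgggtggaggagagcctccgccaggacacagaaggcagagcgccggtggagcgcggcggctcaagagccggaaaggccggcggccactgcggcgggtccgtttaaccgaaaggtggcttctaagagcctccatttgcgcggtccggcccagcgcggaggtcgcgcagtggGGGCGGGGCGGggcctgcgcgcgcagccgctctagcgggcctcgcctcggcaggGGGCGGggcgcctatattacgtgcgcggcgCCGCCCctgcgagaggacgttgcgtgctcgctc
The Srsf5 window held 2 matches to CCGGAAG and 3 to GGGCGG, of which the last overlaps the second CCGGAAG. The Hnrnpdl window held 3 matches to GGGCGG and the Hnrnpu window held 4, of which 2 overlap each other, and neither held CCGGAAG.

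RefSeq held windows for 25 of the 27 genes, 37 windows in all. GGGCGG was present in 91.7% of the 12 SR windows and 76% of the 25 hnRNP windows, against 35.7% of all 32851 windows. CCGGAAG was present in 41.7% of SR and 16% of hnRNP windows, against 8.86% of all. CCAAT was found in 33.3% of SR, 60% of hnRNP and 37.4% of all windows, and TATAAA in 16.7%, 8% and 13.6% of them. The cAMP response element TGACGTCA was in none of the members' windows and in 1.79% of all windows. The median GC content was 67.3% over members' windows and 52.7% over all windows. These are letter matches in windows of equal length, several of which belong to 1 gene, and no test was made.

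Values are log2 intensities made with GCRMA, so a difference of 1 is a doubling, and a value of 1 probe set is not set against that of another. After probe sets with a mean under 4 over all arrays were left out, 75 members remained (48 hnRNP, 27 SR) among 12944 probe sets tested. The members left out were 2 of the 7 probe sets for Hnrnpab and 1 of the 6 for Srsf3. Array medians ran from 4.63 to 4.88 over all probe sets. All measured markers of neurons (7), astrocytes (6), oligodendrocytes (5) and microglia (6) passed the filter, while 0 of 2 blood and 0 of 5 pituitary markers did. Of 7 cerebellar markers, Calb1, Cbln1 and Pvalb passed and Pcp2, Cbln3, Gabra6 and En2 did not. Of the choroid plexus markers 3 of 5 passed, and of the endothelial markers 3 of 6. In whole tissue, fewer cells of a type and less RNA per cell cannot be told apart.

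Some arrays stood apart before any comparison. Haloperidol 2, haloperidol 7 and control 1 had the lowest mean correlations with the rest of their groups, 0.845, 0.846 and 0.857, where the group medians were 0.937 for clozapine, 0.922 for haloperidol and 0.939 for control. As a sign of RNA quality, the 3′ minus 5′ difference averaged over the Gapdh and Actb controls was 1.10, 2.45 and 4.09 on them, where the group medians were 0.877, 0.562 and 0.672. Control 4 (1.36), clozapine 6 (1.24), clozapine 7 (1.24) and clozapine 8 (1.22) were also above haloperidol 2. Within its own group only haloperidol 7 was above haloperidol 2, and the other haloperidol arrays ran from 0.47 to 0.76. The part of RNA quality in the values of haloperidol 2 was not tested. Over all probe sets, average linkage also split the arrays into a cluster A of 11 arrays (3 clozapine, 5 haloperidol, 3 control), a cluster B of 8 (1, 3 and 4), a cluster C of 7 (5, 0 and 2) and 4 arrays on their own (the 3 named and clozapine 7). No scan date or other batch was named in the sources used here. Haloperidol 2 was the lowest array in both families. Its median deviation from the mean of all arrays was -0.87 over hnRNP and -0.84 over SR probe sets. Over all probe sets it was 0.017, and over 17 neuronal splicing regulators -0.87. Haloperidol 7 deviated by 0.30 and 0.33 over hnRNP and SR probe sets, and control 1 by 0.32 and 0.42, upwards in both families. All probe sets moved both ways on haloperidol 2. Against the mean of the other haloperidol arrays, 17.9% were lower by more than 1 and 17.6% higher.

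**Figure D1:**
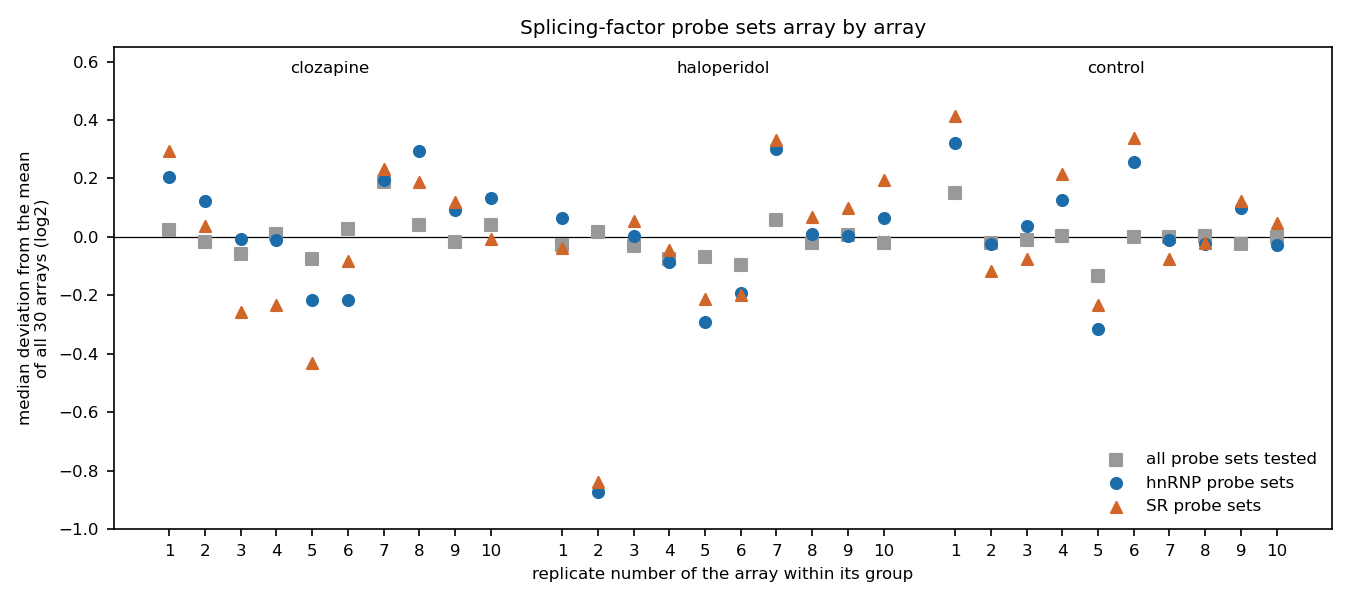
The y axis gives, for each of the 30 arrays (x axis, by group and replicate number), the median deviation of hnRNP probe sets (circles), SR probe sets (triangles) and all probe sets tested (squares) from their means over all arrays, in log2 units. Haloperidol 2 lies at -0.87 for hnRNP and -0.84 for SR probe sets, below every other array, while its median over all probe sets is 0.017.

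Under clozapine against control, no member was called. With limma, 0 of 75 members had an adjusted p under 0.05 (lowest adjusted p 0.9997), where 0% of all 12944 probe sets did. At an unadjusted p under 0.05 there were 4 members, 3 hnRNP probe sets that were higher and 1 SR probe set that was lower, which is 5.33% of members against 4.35% of all probe sets (2.12% higher and 2.22% lower). The SR probe sets lay mostly lower under clozapine, 18 of 27, with a median difference of -0.11, while the hnRNP probe sets were evenly spread, 25 higher and 23 lower, with a median of 0.02. Without control 1, 15 of 27 SR probe sets were lower, with a median of -0.05, and with array weights 13 of 27 were, with a median of 0.01. Over all probe sets, 55.3% were higher and 44.7% lower, and the median difference was 0.02. The median 95% interval of a member reached 0.38 to either side of its difference.

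Srsf10 encodes an SR protein that represses splicing when it loses its phosphates. Its probe set 1418527_a_at ran from 5.03 over a median of 6.37 to 7.39 on clozapine arrays, against 5.39, 7.35 and 7.68 on control arrays. The ranges overlapped, although 9 of 10 clozapine arrays lay below the control mean. The means were 6.31 ± 0.69 under clozapine and 7.04 ± 0.69 in controls (SD, n = 10 each), a difference of -0.73 (SE 0.29, interval -1.31 to -0.14), or 1.66-fold lower, with a limma p of 0.016 and an adjusted p of 0.9997. This was the largest difference of any member in size. With the array cluster as a block in the fit the difference was -0.35, and within cluster C it was -0.20. The other 3 Srsf10 probe sets gave 0.04, -0.05 and -0.22.

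Srsf1, the founding SR protein and a splicing activator, and Srsf5 were the next lower SR probe sets by p. By size, Srsf2 1452439_s_at, whose arrays spread widely, was further from control at -0.46 (SE 0.49). Srsf1 probe set 1453722_s_at ran from 9.26 over 9.40 to 9.96 under clozapine, against 9.13, 9.71 and 10.19 in controls. Its difference was -0.27 (SE 0.13), and 9 of 10 clozapine arrays lay below the control mean. Of the 6 Srsf1 probe sets 5 were lower under clozapine, from -0.28 to -0.11, and 1428100_at was higher by 0.35 (SE 0.32), with a value of -0.12 within cluster C. Srsf5 was lower by 0.30 (difference -0.30, SE 0.15). On the higher side, Srsf4 differed by 0.23 (SE 0.14) and Srsf11 probe set 1427269_at by 0.29 (SE 0.30).

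The hnRNP probe sets at an unadjusted p under 0.05 were all higher under clozapine. Hnrnpdl encodes a relative of hnRNP D that binds AU-rich RNA. Its probe set 1424251_a_at ran from 11.30 over 11.90 to 12.23 under clozapine, against 11.06, 11.56 and 11.88 in controls, a difference of 0.31 (SE 0.15). Hnrnpa2b1 encodes a protein that carries messenger RNA into the processes of neurons and oligodendrocytes, and its probe set 1434047_x_at ran from 9.37 over 9.87 to 11.07 under clozapine, against 9.02, 9.54 and 10.32 in controls. The ranges overlapped, with 8 of 10 clozapine arrays above the control mean, and the difference was 0.38 (SE 0.19). The third was Hnrnpa1 probe set 1455740_at, of a classical splicing repressor, with 4.71 ± 0.14 under clozapine and 4.53 ± 0.12 in controls (SD, n = 10 each), close to the filter. The lower hnRNP probe sets with the smallest p were Hnrnpab 1453849_s_at (-0.19), Hnrnph3 (-0.14) and Hnrnpf 1450963_at (-0.10), the last 2 of a subfamily that binds runs of G. None of these 3 reached an unadjusted p of 0.05 in limma.

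**Figure D2:**
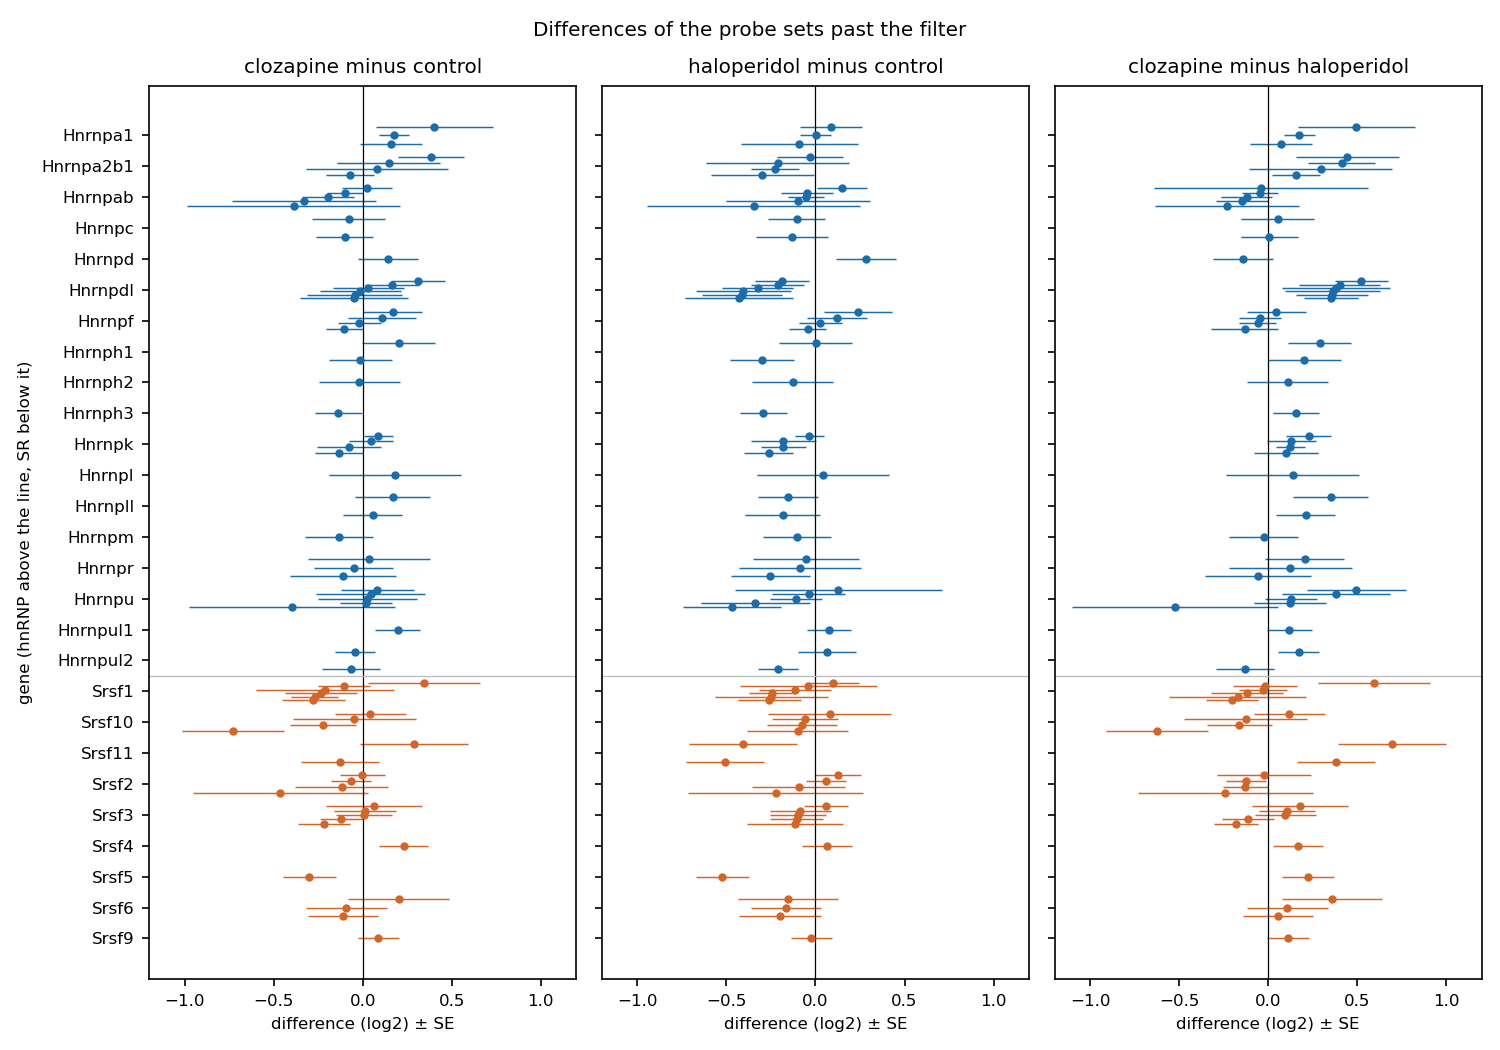
Each point is a probe set that passed the filter, placed by gene (y axis, hnRNP genes above the grey line, SR genes below) and by its limma difference in log2 units with its SE (x axis) in the 3 comparisons. Probe sets of a gene often lie on both sides of 0; Srsf10 spans -0.73 to 0.04 in clozapine minus control, and all 6 Hnrnpdl probe sets lie above 0 in clozapine minus haloperidol.

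Under haloperidol against control, both families lay mostly lower, and their medians depended on single arrays. The members were chosen with earlier results of this comparison known, so its values are a description and nothing is read from their count. Limma called 0 of 75 members, where 0% of all probe sets were called, and 3 members had an unadjusted p under 0.05, all lower, where 2.3% of all probe sets did. Of the hnRNP probe sets 36 of 48 were lower, with a median difference of -0.11, and of the SR probe sets 21 of 27, with a median of -0.10. Over all probe sets 56.5% were lower and 43.5% higher, and the median was -0.03. Without haloperidol 2 the medians were -0.04 for hnRNP and -0.02 for SR probe sets, where the median over all probe sets was -0.04. The shares lower were then 64.6% of hnRNP, 59.3% of SR and 58.7% of all probe sets. Without haloperidol 7 the hnRNP and SR medians were -0.19 and -0.15, where that of all was -0.03. With the array cluster as a block they were -0.02 and 0.06, where that of all was -0.02.

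Srsf5 encodes an SR protein that activates splicing through exon enhancers. Its single probe set, 1423130_a_at, ran from 9.64 over 10.67 to 11.03 on haloperidol arrays, against 10.64, 11.11 and 11.43 on control arrays, with the 9.64 on haloperidol 2. All 10 haloperidol arrays lay below the control mean, and the ranges overlapped. The means were 10.55 ± 0.40 under haloperidol and 11.07 ± 0.28 in controls (SD, n = 10 each), a difference of -0.52 (SE 0.15, interval -0.83 to -0.22), or 1.44-fold lower. Without haloperidol 2 the difference was -0.42, with the cluster block -0.30, within cluster A -0.19 and within cluster B -0.28, so the sign held in each of these and the size did not. Srsf5 lay between these groups on clozapine arrays, at 10.77 ± 0.28 (SD, n = 10).

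Srsf11 encodes an SR-related splicing protein and was lower in both of its probe sets. Probe set 1452371_at ran from 8.79 over 9.12 to 10.05 under haloperidol, against 9.0, 9.85 and 10.56 in controls. All 11 arrays of cluster A, 5 of them haloperidol arrays, lay between 8.92 and 9.31, below every array of clusters B and C. The difference was -0.51 (SE 0.22), but -0.17 with the cluster block, -0.14 within cluster A and -0.07 within cluster B. Srsf1 probe set 1453722_s_at differed by -0.24 (SE 0.13). The higher SR probe sets with the smallest p were Srsf2 1427816_at (0.13) and 1427504_s_at (0.06), of a factor held in nuclear speckles, and Srsf1 1428099_a_at (0.10), and none of them reached an unadjusted p of 0.05 in limma.

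Among hnRNP genes, Hnrnph3 ran from 7.61 over 7.99 to 8.52 under haloperidol, against 7.79, 8.34 and 8.70 in controls. Its difference was -0.29 (SE 0.13), with 8 of 10 haloperidol arrays below the control mean, and within cluster B it was 0.07. Hnrnpk, a protein that binds C-rich RNA, differed by -0.26 (SE 0.14) in probe set 1423684_at and was lower in all 4 of its probe sets. Hnrnpul2, a relative of hnRNP U, differed by -0.21 (SE 0.11) in 1434551_at. The higher hnRNP probe sets with the smallest p were Hnrnpd 1425142_a_at (0.29, SE 0.17), of a protein that binds AU-rich elements in messenger RNA, Hnrnpf 1456664_x_at (0.24, SE 0.19) and Hnrnpab 1455855_x_at (0.15, SE 0.14). Of the 12 hnRNP genes with several probe sets, 6 were lower in all of them (Hnrnpa2b1, Hnrnpc, Hnrnpdl, Hnrnpk, Hnrnpll and Hnrnpr), 0 were higher in all, and the other 6 were mixed. Without haloperidol 2, Hnrnpa2b1 1434047_x_at (0.07) and Hnrnpr 1437526_x_at (0.11) and 1452030_a_at (0.14) were higher than control.

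Under clozapine against haloperidol, hnRNP probe sets lay higher under clozapine, in a share that depended on haloperidol 2, and SR probe sets were evenly spread. This comparison shares its arrays with both others. Limma called 0 of 75 members (lowest adjusted p 0.965), where 0% of all probe sets were called. At an unadjusted p under 0.05 there were 6 members, 5 higher and 1 lower, which is 8% of members against 3.14% of all probe sets (2.21% higher and 0.927% lower). Of the hnRNP probe sets 35 of 48 were higher under clozapine with a median of 0.13, and of the SR probe sets 13 of 27 with a median of -0.02, where 60.7% of all probe sets were higher and 39.3% lower, with a median of 0.05. Without haloperidol 2 the hnRNP median was 0.04, with 60.4% higher, where the median over all probe sets was 0.06, with 62.8% higher. At an unadjusted p under 0.05 in limma there were then 5 of 75 members and 835 of all 12944 probe sets. With the cluster block the hnRNP median was -0.03, with 21 of 48 higher. With that block 22 of 27 SR probe sets were lower, with a median of -0.12.

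Hnrnpdl was higher under clozapine than under haloperidol in all 6 of its probe sets, by 0.35 to 0.52. Probe set 1424251_a_at ran from 11.30 over 11.90 to 12.23 under clozapine, against 10.81, 11.18 and 12.16 under haloperidol. All 10 clozapine arrays lay above the haloperidol mean, and the ranges overlapped. Haloperidol 7, an array that stood apart, reached 12.16. The means were 11.82 ± 0.32 under clozapine and 11.29 ± 0.41 under haloperidol (SD, n = 10 each), a difference of 0.52 (SE 0.15, interval 0.22 to 0.83), or 1.44-fold, with a limma p of 0.0016 and an adjusted p of 0.965. It was 0.47 without haloperidol 2, 0.31 with the cluster block and 0.38 within cluster A. The 6 probe sets did not keep 1 sign with the cluster block, where 1424252_at gave -0.15 and the others 0.01 to 0.31. Against control, the same 6 probe sets differed by -0.05 to 0.31 under clozapine and by -0.43 to -0.19 under haloperidol.

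Hnrnpa2b1 was higher under clozapine than under haloperidol in all 4 probe sets, from 0.15 to 0.44. In 1434047_x_at the difference was 0.41 (SE 0.19), and it was 0.10 with the cluster block, where 1433830_at gave -0.26 and 1433829_a_at -0.07. Hnrnpa1, Hnrnpc, Hnrnph1, Hnrnpk and Hnrnpll were also higher in each of their probe sets, and Hnrnpab was lower in each of the 5 that passed the filter. Of these genes only Hnrnpll kept its sign in all of its probe sets with the cluster block. Hnrnpc and Hnrnph1 turned in both of theirs, and Hnrnpa1, Hnrnpk and Hnrnpab became mixed. With the cluster block both Hnrnpc probe sets (-0.11 and -0.10), both of Hnrnph1 (-0.03 and -0.01), Hnrnpa1 1436549_a_at (-0.05), and Hnrnpk 1423684_at (-0.06) and 1460547_a_at (-0.15) were lower, and Hnrnpab 1448144_at (0.52) and 1415914_at (0.07) were higher. Without haloperidol 2, Hnrnpa1 1455305_x_at (-0.03) and Hnrnpk 1460547_a_at (-0.05) were lower. With all arrays, Hnrnpab 1448144_at stood at 1.63 on clozapine 7, while 8 of 10 clozapine arrays lay above the haloperidol mean. In Hnrnpab 1426114_at 7 of 10 lay above it, and the difference was -0.04 (SE 0.60). The lower hnRNP probe sets with the smallest p were Hnrnpab 1453849_s_at (-0.15) and 1455855_x_at (-0.12), and Hnrnpu 1450849_at (-0.52, SE 0.58), a probe set whose arrays spread widely.

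Among SR genes, Srsf11 probe set 1427269_at ran from 6.77 over 7.80 to 8.82 under clozapine, against 6.13, 7.16 and 8.98 under haloperidol. The difference was 0.69 (SE 0.30), with 8 of 10 clozapine arrays above the haloperidol mean. Its other probe set, 1452371_at, differed by 0.38 (SE 0.22), but by -0.0027 with the cluster block. Srsf1 1428100_at differed by 0.59 (SE 0.32). Srsf10 1418527_a_at was again lower under clozapine, at 6.31 ± 0.69 against 6.94 ± 0.60 under haloperidol (SD, n = 10 each), a difference of -0.63 (SE 0.29), and -0.29 with the cluster block. Srsf1 1428099_a_at (-0.20) and Srsf3 1416150_a_at (-0.18), of the smallest SR protein, were the other lower ones named by their p, neither of which reached an unadjusted p of 0.05 in limma.

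**Figure D3:**
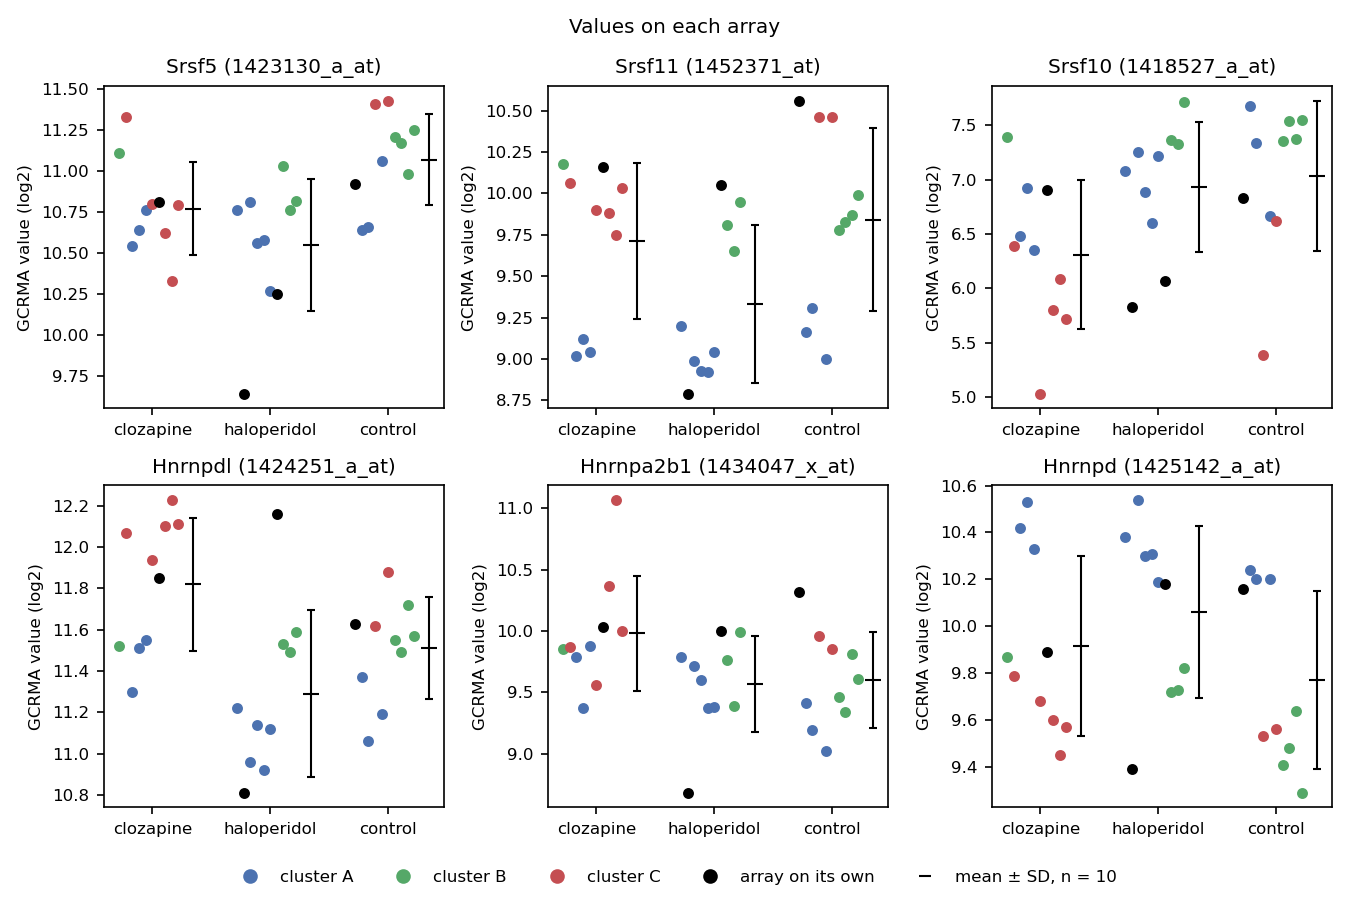
GCRMA values (y axis, log2) of 6 probe sets on every array, by group (x axis), with colours for the array clusters and bars for the mean ± SD of 10 arrays. Srsf11 1452371_at and Hnrnpd 1425142_a_at have cluster A arrays that lie below (Srsf11) or above (Hnrnpd) those of B and C (cluster means 9.07, 9.88 and 10.08 for Srsf11 and 10.33, 9.62 and 9.60 for Hnrnpd in clusters A, B and C), while all haloperidol arrays of Srsf5 lie below the control mean of 11.07.

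Haloperidol 2 carried low values of most splicing factors. It was the lowest of all 30 arrays in 38 of 75 members (50.7%), where it was lowest in 16.8% of all probe sets, and the highest in 2 members (2.67%), where it was highest in 24.6% of all. Set against the mean of the other 9 haloperidol arrays, 63 of 75 members were lower on it, where 48.1% of all probe sets were. By more than 1 it was lower in 31 members (41.3%) and higher in 2 (2.67%), where the shares of all probe sets were 17.9% and 17.6%. The array was picked out on all probe sets, members included, so these are descriptions of 1 array.

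The widest gap was in Hnrnpab 1426114_at, which stood at 4.98 on haloperidol 2, against a mean of 10.57 and a lowest value of 9.96 on the other 9 haloperidol arrays. Hnrnpu, which tethers RNA to chromatin and the nuclear matrix, was lower in all 5 probe sets, by gaps from -2.86 to -1.22. Hnrnpr, which binds messenger RNA in axons, was lower in all 3, from -1.98 to -1.71. The low values were not shared by every SR gene: Srsf2 1452439_s_at was higher on haloperidol 2 by 1.63, Srsf4 by 1.11, Srsf2 1415807_s_at by 0.88 and Srsf6 1448454_at by 0.81. Within Hnrnpab, 1448144_at was higher by 0.87 on the array where 1426114_at was lowest.

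Other RNA-processing genes on haloperidol 2 were low in part. The median deviation from the mean of all arrays was -0.87 over 17 neuronal splicing regulators and -0.61 over 19 kinases, importers and partners of SR proteins. It was 0.26 over 27 core spliceosome genes, 0.06 over 12 hnRNP and other RNA-binding proteins and -0.19 over 6 nonsense-mediated decay genes. Markers of other cell types moved on the same array. The mean of 6 microglial markers was 8.11 on haloperidol 2, the highest of the 30 arrays, against 7.32 to 7.88 on the other haloperidol arrays. The mean of 5 choroid plexus markers, of which Otx2 and Kcne2 did not pass the filter, was 6.45, also the highest, against 5.57 to 6.07. The mean of 7 neuronal markers was 10.20, against 10.15 to 10.78 on the other haloperidol arrays, and 4 of the 30 arrays were lower. For 7 cerebellar markers, of which Pcp2, Cbln3, Gabra6 and En2 did not pass the filter, it was 5.46, with 1 array higher. For 5 oligodendrocyte markers it was 11.26, with 2 arrays higher. For 6 endothelial markers, of which Pecam1, Cdh5 and Kdr did not pass, it was 4.54, with 0 arrays lower. For 6 astrocyte markers it was 8.635, with 11 arrays lower and 18 higher. The part of these cell types in the low splicing factor values was not tested.

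**Figure D4:**
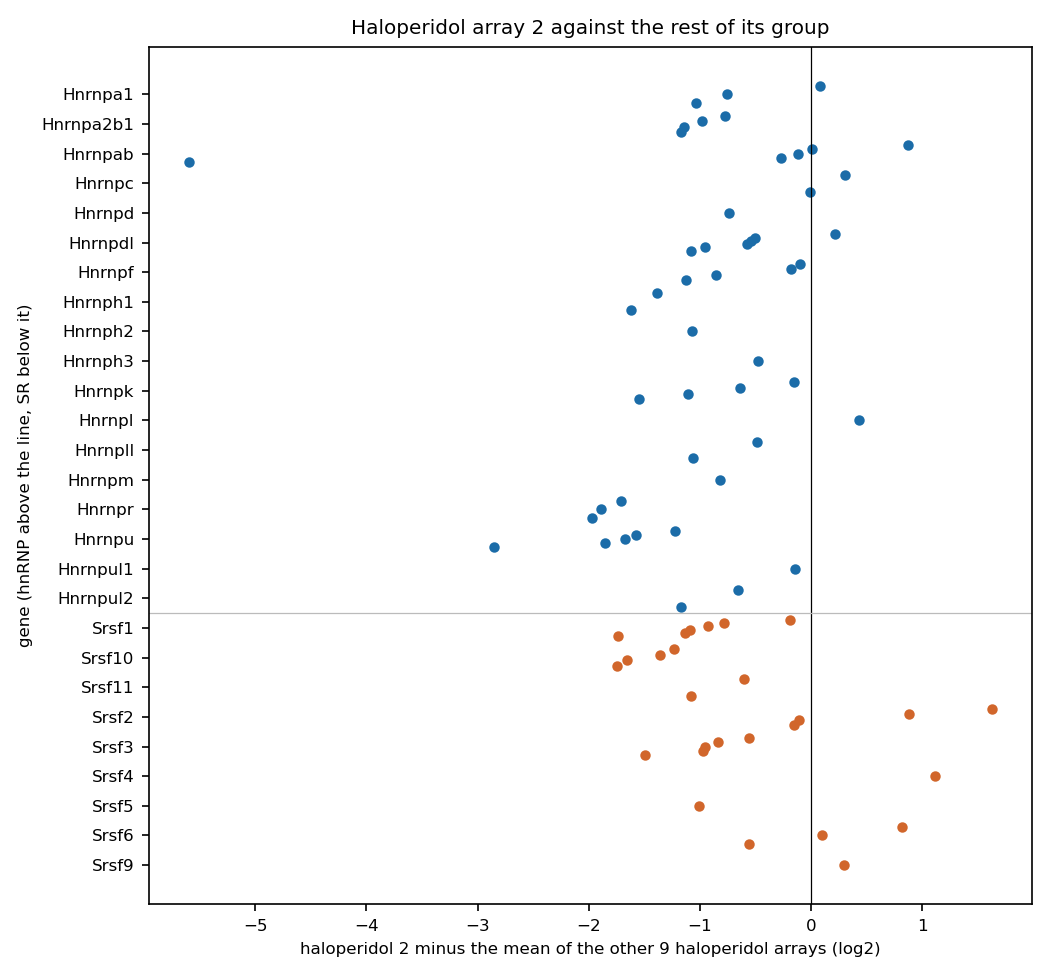
The x axis gives the value on haloperidol 2 minus the mean of the other 9 haloperidol arrays, in log2 units, for each probe set that passed the filter, by gene (y axis, hnRNP above the grey line, SR below). Of the 75 points 63 lie below 0, with Hnrnpab 1426114_at at -5.59 and Srsf2 1452439_s_at at 1.63.

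Gaps between array clusters were wider than the treatment differences for part of the members. The treatment differences of members ran from -0.73 to 0.69 over the 3 comparisons, while 12 members differed by more than 1 between cluster means. The clusters were built on the same values, so the gaps between them are descriptions. The median widest gap between cluster means was 0.45 over members and 0.50 over all probe sets, and the share over 1 was 16% of members and 17% of all. Members had their lowest mean in cluster A in 42 of 75 cases (56%, 46.6% of all probe sets). Of the 27 SR probe sets 17 were lowest in cluster A and 2 were highest there (7.41%), where 31.6% of all probe sets were highest in A.

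Srsf6, an SR protein that regulates tau exon choice in cultured human cells, was lowest in cluster A in all 3 probe sets. In 1416721_s_at its means were 8.25 ± 0.23 in A, 9.25 ± 0.16 in B and 9.49 ± 0.25 in C (SD, n = 11, 8 and 7). Srsf11 1452371_at stood at 9.07 in A, 9.88 in B and 10.08 in C. Hnrnpdl 1424252_at stood at 7.71, 8.91 and 9.09, the widest cluster gap of the Hnrnpdl probe sets. Hnrnpd went the other way, at 10.33 ± 0.13 in A, 9.62 ± 0.21 in B and 9.60 ± 0.11 in C, and its lowest array in A, at 10.19, lay above its highest in B and C, at 9.87. Srsf10 1418527_a_at was lowest in C, at 6.95 in A, 7.45 in B and 5.86 in C, and C held 5 clozapine arrays, 2 control arrays and 0 haloperidol arrays. Cluster and treatment are therefore tied in part, and within cluster A, which holds all 3 groups, Srsf10 1418527_a_at differed by -0.64 between clozapine and control. The mean of 6 astrocyte markers ran from 8.83 to 9.37 in cluster A, against 8.51 to 8.71 in B and 8.32 to 8.95 in C. For 5 oligodendrocyte markers it ran from 10.55 to 10.99 in A, 11.03 to 11.26 in B and 10.9 to 11.42 in C. The medians in A, B and C were 10.43, 10.705 and 10.66 for 7 neuronal markers. They were 5.67, 6.08 and 6.02 for 5 choroid plexus markers and 7.53, 7.51 and 7.65 for 6 microglial markers. The part of these cell types in the gaps was not tested. The 3′ minus 5′ difference averaged 0.637 in A, 0.603 in B and 1.06 in C, and cluster A held only replicates 1 to 6 of their groups.

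**Figure D5:**
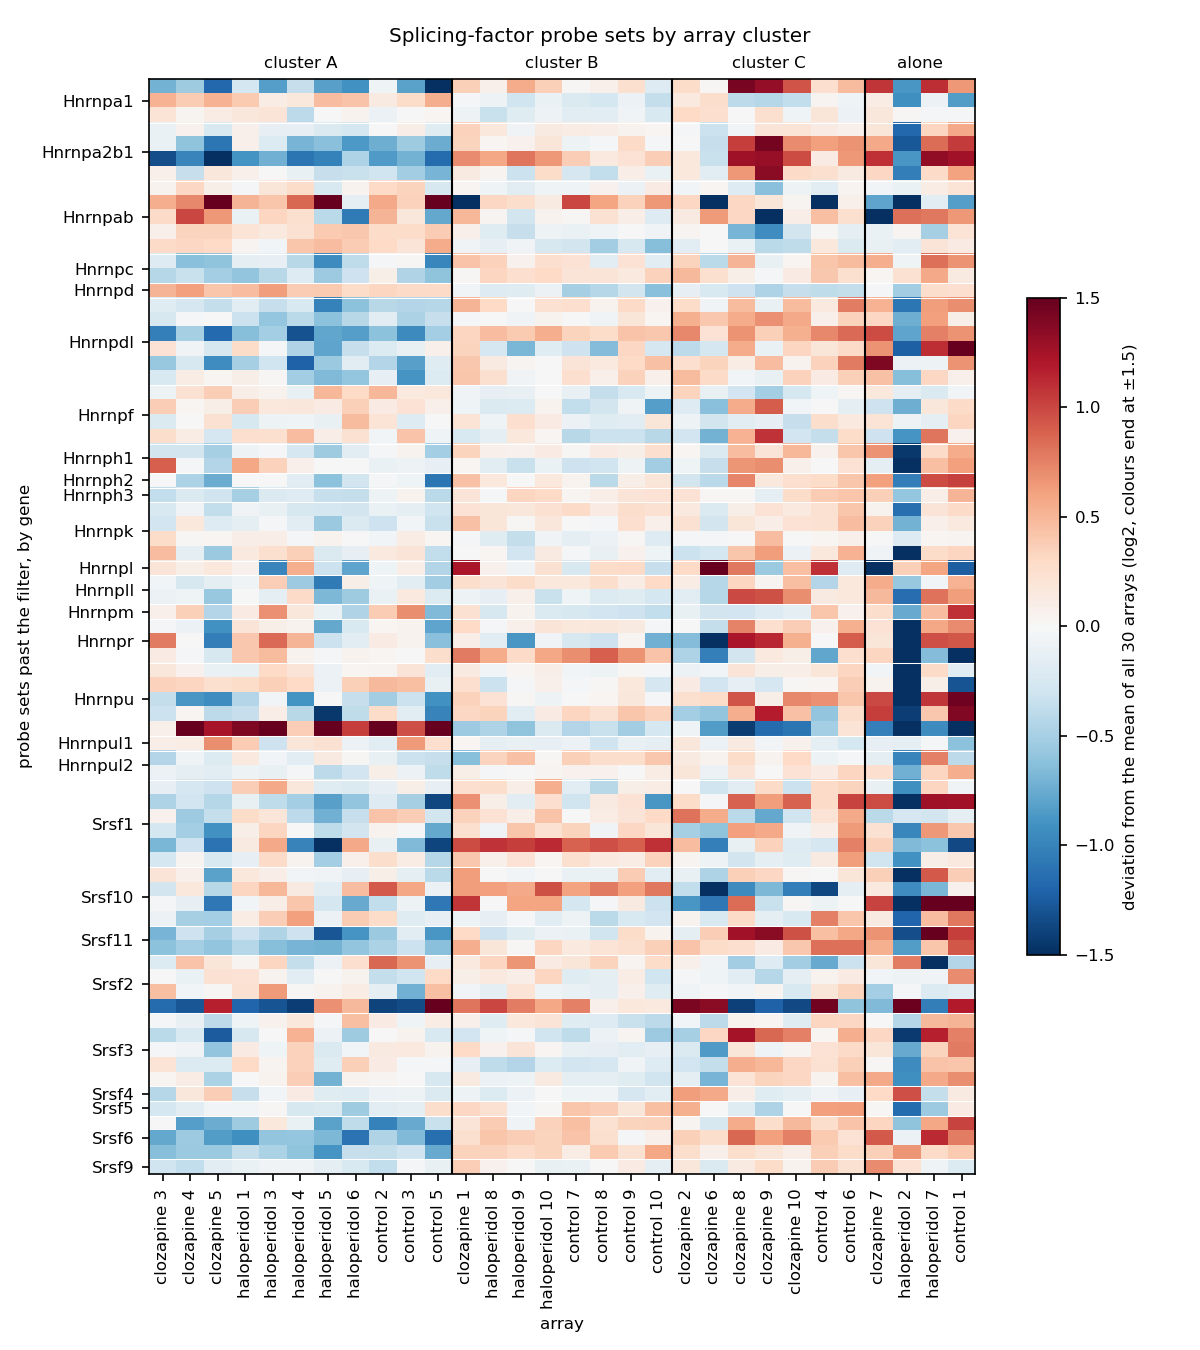
Deviation of each of the 75 probe sets (y axis, by gene) from its mean over all 30 arrays (x axis, grouped by array cluster), in log2 units, red for higher and blue for lower, with colours ending at ±1.5. Hnrnpdl, Srsf6 and Srsf11 rows are blue in cluster A, Hnrnpd is red there, and most rows are blue on haloperidol 2.

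Probe sets of 1 gene often disagreed. In Hnrnpu, probe set 1450849_at stood at 11.27 in cluster A, 9.44 in B and 9.16 in C, while 1434390_at stood at 6.87, 7.47 and 7.86 and 1423050_s_at at 10.78, 10.75 and 10.85. In Hnrnpa1, 1436549_a_at had its lowest mean in A (4.76, against 5.68 in B and 6.17 in C), and 1455305_x_at its highest (8.89, against 8.36 and 8.42). Between treatments, 8 of the 12 hnRNP genes and 5 of the 6 SR genes with several probe sets were mixed in sign in clozapine against control. In haloperidol against control 6 hnRNP and 4 SR genes were mixed, and in clozapine against haloperidol 4 and 3. Of the probe sets that passed the filter, 26 hnRNP and 14 SR ones have an a, s or x suffix, which marks sets that can match several transcripts.

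The SD over arrays within groups had a median of 0.41 over hnRNP and 0.45 over SR probe sets, against 0.44 over all probe sets. It was widest in Hnrnpab 1426114_at (1.41), Hnrnpu 1450849_at (1.36) and Srsf2 1452439_s_at (1.15). It was narrowest in Hnrnpk 1454692_x_at (0.14), Hnrnpa1 1455740_at (0.15) and Hnrnpab 1415914_at (0.20). The same gene, Hnrnpab, thus held both a wide and a narrow probe set.

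Other splicing genes were read from the same fit, with 1 probe set per gene, and limma called 0 of them in any comparison. Of 19 kinases, importers and partners of SR proteins, Acin1, which binds spliced RNA near exon junctions, was higher by 0.56 (SE 0.19) and Srpk2, a kinase of SR proteins, differed by -0.99 (SE 0.36) under clozapine against control. Clk4, another such kinase, was higher by 0.46 (SE 0.18) under clozapine than under haloperidol, at 7.26 ± 0.32 against 6.81 ± 0.48 (SD, n = 10 each). A list of 12 hnRNP and other RNA-binding proteins with other symbols held Elavl1, which stabilises AU-rich messenger RNA. Elavl1 differed from control by -0.39 (SE 0.12) under clozapine and by -0.31 (SE 0.12) under haloperidol, 2 comparisons that share their control arrays. Raly, an hnRNP protein of the same list, was higher by 0.77 (SE 0.35) under clozapine against control. Of 27 core spliceosome genes, the U5 protein gene Eftud2 differed by -0.43 (SE 0.15) and U2af1, which reads the 3′ splice site, by -0.38 (SE 0.18) under clozapine against control. Of 17 neuronal splicing regulators, Srrm3, a factor for neuronal microexons, differed by -0.52 (SE 0.29) under clozapine against haloperidol, and Ptbp2, the neuronal polypyrimidine tract protein, by -0.32 (SE 0.21) under haloperidol against control. In haloperidol against control, 13 of the 19 SR partners, 18 of the 27 spliceosome genes and 13 of the 17 neuronal regulators were lower. So were 6 of the 12 hnRNP and other RNA-binding genes and 4 of the 6 decay genes, where 56.5% of all probe sets were lower. At an unadjusted p under 0.05 only Elavl1 among them was lower in that comparison, and none was higher, by limma.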

How the data were processed

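Forebrain RNA of 30 mice was measured on Affymetrix MOE430A arrays, 1 per mouse, 10 per group by title. The deposited values are log2 intensities, and the submitters' processing notes name GCRMA as what the authors used, with its version and the scan dates not given in the sources used here. They ran from 0.27 to 15.47. Nothing further was normalized.

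Gene symbols came from the platform annotation, and of 22626 probe sets other than the 64 controls, 20380 had 1 symbol. Promoter windows came from RefSeq (GRCm38.p6). Probe sets with a mean of at least 4 were fitted with limma 3.58.1 in R 4.3.3, with 1 mean per group over all 30 arrays (27 residual degrees of freedom). Tests were two-sided, and p-values were adjusted over 12944 probe sets by the Benjamini-Hochberg method and called at an adjusted p under 0.05; intervals are 95%. The fit was tested on simulated data. The number of arrays limits the precision.

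The members and the gene lists were chosen with earlier results of these data known. Values by group are given, in each comparison and family, for the 3 higher and 3 lower probe sets with the smallest p and for other probe sets of those genes, for the 3 widest and 3 narrowest within-group SDs, and for the 2 genes of each list with the smallest p; those on haloperidol 2 and on clusters were chosen after their values were seen. Alternatives were quantile normalization, other filters, blocks for replicate number, replicates 1 to 6 against 7 to 10 and array cluster, an RNA quality covariate, array weights, fits without the arrays that stood apart, fits of 2 groups, and fits within clusters. Family medians were also taken with 1 probe set per gene and without suffixed probe sets.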

Additional observations from a re-analysis of the deposited data

Results flagged for a closer look

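In each group of 10 arrays, the values of the 24 probe sets named by p were searched for a single highest or lowest array far from its nearest neighbour by Dixon's test. This picked out 11 of 72 groups; chance alone gives about 1 in 20. Haloperidol 2 accounted for 4 of them: Hnrnpa2b1 1434047_x_at at 8.68 (nearest array 9.37), Srsf4 at 9.48 (nearest 8.64), Hnrnpk 1423684_at at 9.67 (nearest 10.52) and Srsf1 1428099_a_at at 8.75 (nearest 9.45). Haloperidol 7 had Srsf11 1427269_at at 8.98 (nearest 7.38), and control 1 had Srsf4 at 8.65 (nearest 8.46). The other 5 lay on arrays that do not stand apart over all probe sets. Clozapine 1 had Srsf1 1453722_s_at at 9.96 (nearest 9.60) and control 5 had it at 9.13 (nearest 9.67). Haloperidol 3 had Srsf2 1427816_at at 5.17 (nearest 4.76). Control 4 had Srsf10 1418527_a_at at 5.39 (nearest 6.62), and control 3 had Hnrnpdl 1449039_a_at at 8.62 (nearest 9.30).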

How the results depend on the processing

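No member was called under any alternative but array weights, which called 4 members in clozapine against control among 1731 probe sets in all: Hnrnpa1 1455740_at (difference 0.22, adjusted p 0.0450 in limma), Hnrnpa2b1 1434047_x_at (0.42, 0.0431), Srsf1 1453722_s_at (-0.27, 0.0456) and Srsf10 1418527_a_at (-0.99, 0.00732). The weights of controls 7 to 10 were 3.44 to 4.86; the cause was not tested. Within cluster C, the medians in clozapine against control were -0.11 for hnRNP and -0.25 for SR probe sets. Of the named probe sets 5 changed sign, in 6 differences: within cluster A for Hnrnpf 1450963_at (0.0028, clozapine against control) and Hnrnpab 1455855_x_at (-0.089 in haloperidol against control and 0.043 in clozapine against haloperidol), within cluster B for Hnrnph3 (0.066, haloperidol against control), within cluster C for Srsf1 1428100_at (-0.12, clozapine against control) and with the cluster block for Srsf11 1452371_at (-0.0027, clozapine against haloperidol); the cause was not tested. Quantile normalization left 51% of all probe sets higher in haloperidol against control, where 43.5% were higher as deposited, and 72% of members lower, where 76% were. Deviations from the group means correlated above 0.1 in 5, 5 and 7 of 10 same-numbered pairs in the 3 comparisons. The coefficients ran from -0.50 to 0.70, from -0.31 to 0.80 and from -0.19 to 0.70. Of 30 arrays, 4 correlated best with their own number in another group. Cluster A held only replicates 1 to 6, so replicate number and array cluster are tied in part. The correlations therefore cannot show whether replicate numbers pair the mice. With the replicate number as a block, the hnRNP medians were 0.02, -0.11 and 0.13 and the SR medians -0.11, -0.10 and -0.02, 0 members were called, and 3, 8 and 10 members had an unadjusted p under 0.05 in limma, where 4, 3 and 6 had without it; over all 12944 probe sets 846, 540 and 642 did with the block. With array weights that count was 16, 21 and 12 of the members and 3994, 3094 and 2467 of all probe sets.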
